A study of Mus musculus with 9 samples.

Results

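Transcript levels of 9 transcription factor genes of the ETS, RUNX and MEIS groups were followed in 9 bulk RNA-seq libraries of mouse bone marrow megakaryocyte–erythrocyte progenitors (MEPs). The genes were chosen by name, as the rows of the count table that map to Fli1, Erg, Ets1, Etv6, Gabpa, Runx1, Cbfb, Meis1 and Mef2c, and all 9 were found among the 35275 gene identifiers of the table. MEPs were gated as Lin-ckit+CD34-FcγRII/IIIlo bone marrow cells of mice on the C57Bl/6 background, 6 to 12 weeks old, and were sorted on the binding of HS3A8, a single-chain antibody fragment (scFv) against heparan sulfate. HS3A8-high MEPs were the 50% with the strongest binding and HS3A8-low MEPs the 50% with the weakest, while MPB49 control MEPs were mock-sorted with an scFv that has no known epitope and stand for the whole MEP gate. Each of the 3 groups had 3 libraries of 25000 cells. The HS3A8 fractions are parts of 1 gate split on a continuous signal, so each can hold several kinds of progenitor. Which purchased line gave these cells, and whether the fractions of a number came from the same mouse, are not given in the sources used here.

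MEPs give rise to megakaryocytes and to erythroid cells. ETS factors bind DNA at a GGAA core, and FLI1, together with RUNX1 and GATA1, activates platelet genes. KLF1, a zinc finger factor that activates erythroid genes, and FLI1 repress each other's programmes, and their balance is a textbook model of the choice between these fates. CBFB is the partner that stabilises RUNX proteins on DNA without binding it alone, MEIS1 is a homeodomain protein that binds DNA with PBX partners and is required for the megakaryocyte lineage, and MEF2C is a MADS-box factor active in megakaryocytes and B lymphocytes.

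Fli1 (ENSMUSG00000016087, chr9:32422204-32542861, minus strand of GRCm38) and Ets1 (ENSMUSG00000032035, chr9:32636221-32757820, plus strand) are neighbours on chromosome 9. Erg (ENSMUSG00000040732, chr16:95359169-95586593), Runx1 (ENSMUSG00000022952, chr16:92601466-92826149) and Gabpa (ENSMUSG00000008976, chr16:84834925-84863779) lie on chromosome 16. Etv6 (ENSMUSG00000030199) is at chr6:134035700-134270158, Cbfb (ENSMUSG00000031885) at chr8:105170674-105217989, Meis1 (ENSMUSG00000020160) at chr11:18879817-19018985 and Mef2c (ENSMUSG00000005583) at chr13:83504034-83667080. Counts are sums over all exons of a gene and do not separate its promoters or isoforms. Of the exonic bases of Meis1, 18.3% are shared with the transcripts Gm16140 and Gm37818, and of those of Gabpa, 6.98% with the antisense gene Atp5j. The strand setting of the counting is not given in the sources used here, so reads from those stretches are uncertain. For Etv6 and Runx1 the shared part was 2.26% and 0.881%, and for the other members 0%.

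RefSeq promoter windows (GRCm38.p6) matched 7 of the 9 members, all but Fli1 and Ets1. The 250 bases before the RefSeq start are shown for 3 members that differed between the fractions and for Gabpa, which did not pass the test in any comparison. These starts can differ from the gene positions given above. By those positions most of the Gabpa window, with all of its marked matches, lies inside the gene. The Meis1 window overlaps its gene by a few bases. Capitals mark GGAA or its reverse complement TTCC, the core letters of ETS sites. For Erg the start farthest upstream was taken.
Meis1 (chr11:19018970-19019219, - strand): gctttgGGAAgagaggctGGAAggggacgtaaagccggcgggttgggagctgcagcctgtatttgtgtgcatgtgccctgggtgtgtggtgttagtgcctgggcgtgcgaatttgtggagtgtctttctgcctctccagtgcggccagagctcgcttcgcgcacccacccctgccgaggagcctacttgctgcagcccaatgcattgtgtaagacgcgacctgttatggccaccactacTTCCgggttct
Erg (chr16:95586594-95586843, - strand): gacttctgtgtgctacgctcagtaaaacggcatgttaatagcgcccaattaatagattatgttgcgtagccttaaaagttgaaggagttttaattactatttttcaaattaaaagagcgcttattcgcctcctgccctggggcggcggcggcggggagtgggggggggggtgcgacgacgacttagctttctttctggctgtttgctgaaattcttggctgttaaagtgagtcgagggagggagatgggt
Cbfb (chr8:105170424-105170673, + strand): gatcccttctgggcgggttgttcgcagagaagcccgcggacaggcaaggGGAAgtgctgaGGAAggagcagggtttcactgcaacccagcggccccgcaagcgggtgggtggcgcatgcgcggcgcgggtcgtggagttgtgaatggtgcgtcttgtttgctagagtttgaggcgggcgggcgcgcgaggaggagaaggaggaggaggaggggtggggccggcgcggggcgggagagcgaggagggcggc
Gabpa (chr16:84834874-84835123, + strand): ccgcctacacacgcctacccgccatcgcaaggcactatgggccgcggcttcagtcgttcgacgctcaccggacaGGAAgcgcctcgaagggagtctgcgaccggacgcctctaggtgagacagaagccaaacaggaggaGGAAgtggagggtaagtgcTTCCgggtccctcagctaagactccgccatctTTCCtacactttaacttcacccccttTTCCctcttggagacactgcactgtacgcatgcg
The window of Meis1 held 3 matches to GGAA on either strand, that of Cbfb 2, that of Gabpa 5 and that of Erg 0. Among 32851 promoter windows of the same length, 93.4% held GGAA, with a median of 3 matches, so these letters are common in any promoter. GATAA, the core of GATA sites, was in none of the 4 windows shown and in 22.6% of all windows. TGTGGT, a RUNX core, was found once in the Meis1 window and in 14% of all windows, and TGACAG, a MEIS core, was in none of the 4 and in 15.9% of all. The search covered both strands, and none of these motifs contains another. Such matches are letters in a window and not binding sites.

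Library totals ran from 11781637 to 15850037 counts. A count of 0 allows up to 3 counts, or 0.189 to 0.255 CPM (counts of a gene scaled to the library total), in these libraries, and these limits cover counting error only. Levels are CPM scaled by TMM, which removes differences in library composition, and group values are mean ± SD (n = 3). Replicates differed by more than counting noise in every group, where chi-square divided by its degrees of freedom went from 9.61 between control replicates 2 and 3 to 196 between control replicates 1 and 2, and control replicate 1 stands apart from its group. The MEP label was checked on Klf1, Gata1, Epor and Kit, which were present in all 9 libraries. Transcripts of Cd34, whose protein is gated out, were at 0.827 to 11.0 CPM in HS3A8-high, 28.1 to 73.7 CPM in HS3A8-low and 15.3 to 42.3 CPM in the control.

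HS3A8-high and HS3A8-low MEPs were compared to ask whether the megakaryocyte-associated factors differ between the fractions. Meis1, Erg, Fli1, Mef2c and Cbfb were lower in HS3A8-high, by 10.1-fold, 12.8-fold, 4.56-fold, 3.46-fold and 2.15-fold. These 5 of the 9 members passed an adjusted p of 0.05 in edgeR's quasi-likelihood test, all in that direction. Over all 11791 genes tested, 451 passed (3.82%), and 379 of them (3.21%) were lower in HS3A8-high. Of the 9 log2 fold changes of HS3A8-high over HS3A8-low, 8 were negative with a median of -1.79, against -0.03 over all genes tested. The members had been chosen with earlier results of these data known. Their excess over all genes, here and in the later comparisons, is therefore no independent support. In bulk RNA, fewer cells that express a gene and less RNA of it in each cell cannot be told apart.

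**Figure D1:**
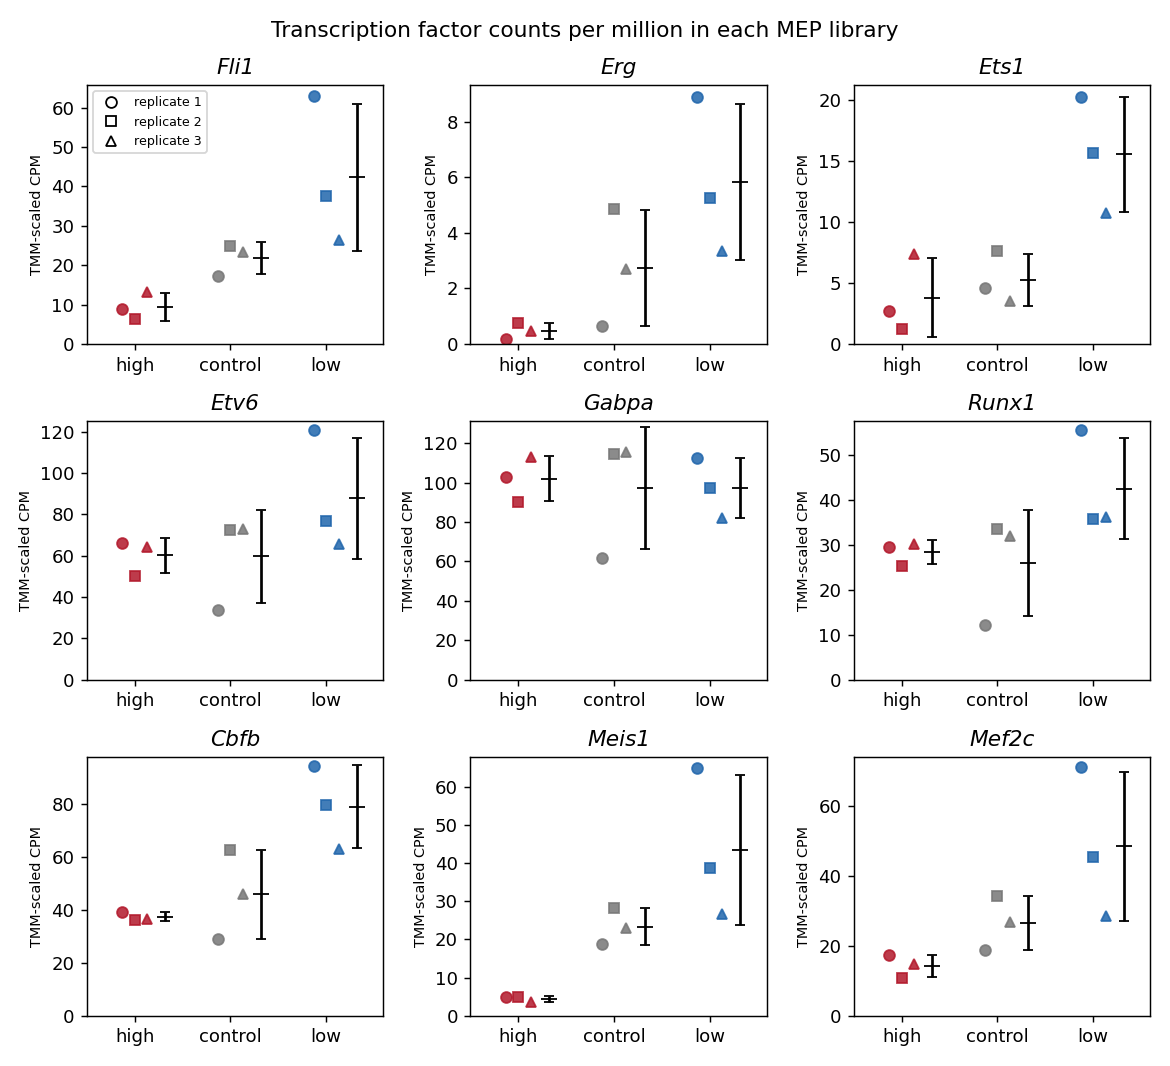
TMM-scaled CPM (vertical axes, each from 0) of the 9 transcription factors in HS3A8-high, MPB49 control and HS3A8-low MEPs (horizontal axes), with a point per library, its shape giving the replicate number, and mean ± SD beside each group. HS3A8-low replicate 1 is the highest HS3A8-low library in all 9 panels, and the HS3A8-high points of Meis1 all lie below 5 CPM.

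Fli1 was at 8.91, 6.24 and 13.2 CPM in HS3A8-high replicates 1, 2 and 3, at 62.9, 37.6 and 26.3 CPM in HS3A8-low and at 17.2, 24.9 and 23.4 CPM in the control. The 3 groups did not overlap, with all HS3A8-high libraries lowest and all HS3A8-low libraries highest. Between the fractions the log2 fold change was -2.19 ± 0.401 (SE, adjusted p = 0.0363, edgeR with Benjamini-Hochberg adjustment). Erg, the closest relative of Fli1 and a factor required by blood stem cells and megakaryocytes, was at 0.188, 0.752 and 0.463 CPM in HS3A8-high and at 8.89, 5.27 and 3.36 CPM in HS3A8-low. The HS3A8-high values rest on 3, 10 and 7 counts, and the first is at the level that a count of 0 allows. The 2 fractions did not overlap, and the log2 fold change of Erg was -3.67 ± 0.611 (SE, adjusted p = 0.0307, edgeR). Control values of Erg ran from 0.658 CPM in replicate 1 to 4.84 CPM in replicate 2 and overlapped the fractions on both sides.

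Ets1, best known in lymphocytes, was at 2.70, 1.20 and 7.41 CPM in HS3A8-high and 20.2, 15.6 and 10.8 CPM in HS3A8-low. The groups did not overlap, yet HS3A8-high replicate 3 stood well above the other replicates of its group. With a log2 fold change of -2.07 and a 95% confidence interval from -3.55 to -0.58, Ets1 did not pass (adjusted p = 0.129, edgeR). It passed in 4 of 15 alternatives, which were DESeq2 (adjusted p = 0.00922), voom (0.0201), the fit without HS3A8-high replicate 3 (0.0323, at -2.99 on the log2 scale) and the fit without both libraries numbered 3, and its adjusted p over all of them ran from 0.00922 to 0.327. Etv6, an ETS repressor needed by bone marrow stem cells, was at 66.1, 50.4 and 64.1 CPM in HS3A8-high and 121, 77.1 and 65.6 CPM in HS3A8-low, with HS3A8-low replicate 3 inside the range of HS3A8-high. Its log2 fold change was -0.57 (95% confidence interval -1.15 to 0.00, adjusted p = 0.253, edgeR). Gabpa, which pairs with GABPB proteins and serves widely expressed genes as well as early megakaryocyte genes, was at 103, 90.0 and 113 CPM in HS3A8-high and 112, 97.5 and 81.9 CPM in HS3A8-low. These ranges overlapped almost entirely, and the 95% confidence interval of the log2 fold change, -0.31 to 0.39 around 0.04, does not reach the intervals of Fli1 (-3.14 to -1.24) and Erg (-5.12 to -2.23).

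Runx1 was at 29.7, 25.4 and 30.3 CPM in HS3A8-high and 55.6, 35.8 and 36.3 CPM in HS3A8-low. The fractions did not overlap, but the log2 fold change of -0.61 (95% confidence interval -1.09 to -0.13) did not pass (adjusted p = 0.158, edgeR). Its partner Cbfb was at 39.3, 36.0 and 36.6 CPM in HS3A8-high and 94.2, 79.3 and 63.0 CPM in HS3A8-low. The HS3A8-high libraries were close together and all below HS3A8-low, and Cbfb passed with a log2 fold change of -1.11 ± 0.162 (SE, adjusted p = 0.0253, edgeR). The difference between Runx1 and Cbfb in this respect was not tested.

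Meis1 was at 4.89, 4.81 and 3.50 CPM in HS3A8-high, 64.9, 38.9 and 26.6 CPM in HS3A8-low and 18.7, 28.4 and 23.1 CPM in the control. It was scarce in every HS3A8-high library, and the lowest library outside that group was several times higher. The log2 fold change between the fractions was -3.33 ± 0.371 (SE), with the smallest adjusted p of the members (0.0128, edgeR). Mef2c was at 17.3, 10.8 and 14.7 CPM in HS3A8-high and 71.3, 45.6 and 28.7 CPM in HS3A8-low. Again the fractions did not overlap, and Mef2c passed with a log2 fold change of -1.79 ± 0.353 (SE, adjusted p = 0.0434, edgeR).

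For 7 of the 9 members, all but Etv6 and Gabpa, every HS3A8-high library lay below every HS3A8-low library, as did 14.5% of all genes tested. The calls depended on single libraries. No member passed when HS3A8-high replicate 1, HS3A8-high replicate 2 or HS3A8-low replicate 2 was left out, with 42, 53 and 0 genes called in all. For the last of these, edgeR put 1900 genes at an unadjusted p under 0.05. Without HS3A8-high replicate 3, Fli1, Cbfb and Meis1 passed together with Ets1, among 439 genes, while Erg and Mef2c did not. Without HS3A8-low replicate 1, Meis1 was the member that still passed, among 56 genes. The log2 fold changes kept their sign in these 5 fits for every member but Gabpa, which was at -0.029 without HS3A8-high replicate 3. DESeq2 and voom each called 6 members, the 5 named and Ets1, but also more genes in all, 1305 and 1490 of 11791 against 451 in the main fit.

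Seen per length of annotated exons, Gabpa, Cbfb, Etv6 and Fli1 were the most abundant members in each of the 3 groups, and the order among the rest changed. In HS3A8-high the level ran from 17.9 ± 2.02 CPM per kb for Gabpa through 10.7 ± 0.505 for Cbfb, 10.1 ± 1.43 for Etv6, 2.71 ± 1.01 for Fli1 and 2.36 ± 0.224 for Runx1 to 0.135 ± 0.0814 for Erg. Neighbours in that order whose ranges overlapped were Cbfb and Etv6, Fli1 and Runx1, Mef2c and Ets1, and Ets1 and Meis1. In HS3A8-low the order began with Cbfb at 22.6 ± 4.49 CPM per kb, Gabpa at 17.1 ± 2.68, Etv6 at 14.7 ± 4.89 and Fli1 at 12.1 ± 5.37, which overlapped one after the next. After a gap followed Meis1 at 4.13 ± 1.86, Runx1 at 3.54 ± 0.938, Mef2c at 3.09 ± 1.36, Ets1 at 1.83 ± 0.556 and Erg at 1.69 ± 0.810. By group mean, Meis1 thus had rank 5 among the members in HS3A8-low and in the control and rank 8 in HS3A8-high. Its range overlapped that of Runx1, the next in order, in HS3A8-low and in the control, and that of Ets1 in HS3A8-high.

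**Figure D2:**
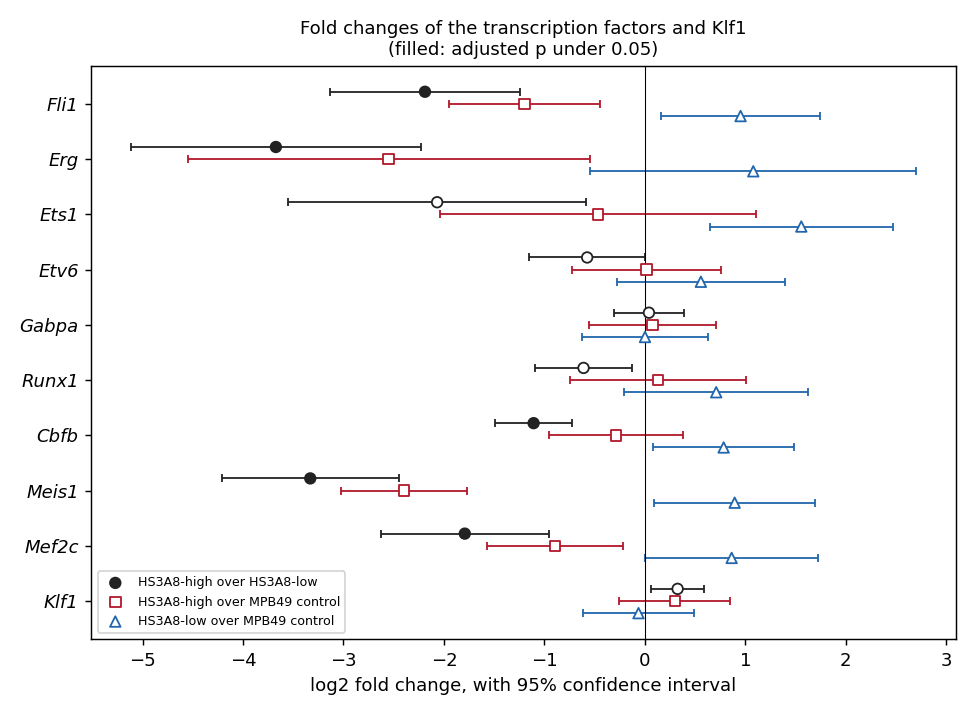
Log2 fold changes (horizontal axis) of the 9 members and Klf1 (rows) with 95% confidence intervals, for HS3A8-high over HS3A8-low, HS3A8-high over the MPB49 control and HS3A8-low over the MPB49 control; filled symbols passed an adjusted p of 0.05 in edgeR. Filled symbols appear for Fli1, Erg, Cbfb, Meis1 and Mef2c between the fractions, and the interval of Gabpa includes 0 in all 3 comparisons.

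Klf1 (ENSMUSG00000054191, chr8:84901928-84905291) was set beside Fli1 as its counterpart. It was at 852, 1025 and 958 CPM in HS3A8-high, 628, 801 and 792 CPM in HS3A8-low and 538, 854 and 930 CPM in the control. Every HS3A8-high library was above every HS3A8-low library, with a log2 fold change of 0.33 ± 0.113 (SE) that did not pass (adjusted p = 0.168, edgeR). With the replicate number as a block, Klf1 passed (adjusted p = 0.0243), the single alternative of 15 in which it did, over a range from 0.0243 to 0.504. The edgeR fit with the block called 1367 genes (11.6%) and the same 5 members, from Meis1 (adjusted p = 0.00263) to Erg (0.0229). In that fit Runx1 (0.0582), Ets1 (0.0625) and Etv6 (0.0878) did not pass. The difference in Klf1 was thus small next to that in Fli1, on the same log2 scale.

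Within a library the ratio of the 2 transcripts does not depend on scaling. For each Fli1 count there were 95.6, 164 and 72.5 Klf1 counts in HS3A8-high replicates 1, 2 and 3, 9.98, 21.3 and 30.1 in HS3A8-low and 31.3, 34.3 and 39.7 in the control. No library of a group fell inside another group's range, so the libraries were ordered from HS3A8-low through control to HS3A8-high. The log2 ratio of Fli1 to Klf1 averaged -6.70 ± 0.597, -4.21 ± 0.814 and -5.12 ± 0.175 in HS3A8-high, HS3A8-low and the control (SD, n = 3). HS3A8-high was lower than HS3A8-low by 2.49 on that scale, or 5.60-fold (exact permutation test, two-sided, p = 0.1, the smallest value that 3 libraries against 3 allow). Against the control, HS3A8-high was 2.98-fold lower and HS3A8-low 1.88-fold higher in the ratio, with the same smallest p of 0.1 in each exact permutation test. The control libraries are used in both of these comparisons. Corrected for exon length, Klf1 transcripts exceeded those of Fli1 in every library, from 22.7-fold in HS3A8-low replicate 1 to 374-fold in HS3A8-high replicate 2.

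**Figure D3:**
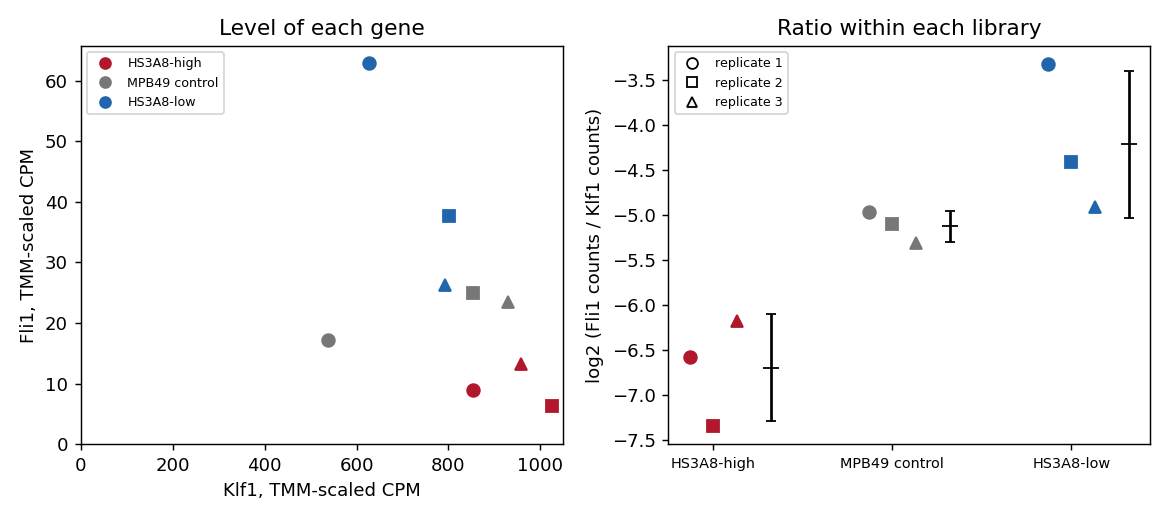
Left, TMM-scaled CPM of Fli1 against that of Klf1, both axes from 0, with a point per library coloured by group. Right, log2 ratio of Fli1 to Klf1 counts by group, with mean ± SD, where the HS3A8-high libraries lie lowest, the control libraries close together in the middle and the HS3A8-low libraries highest.

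The fractions were then compared with the MPB49 control, whose libraries enter both comparisons. For HS3A8-high against the control edgeR called 2 of 11486 genes (0.0174%) and none of the 9 members. For HS3A8-low against the control it called 0 of 11878 genes (0%) and none of the members. At an unadjusted edgeR p under 0.05 there were 562 of 11486 and 673 of 11878 genes. That is close to the share that such a threshold passes where no gene differs. DESeq2 called 138 and 94 genes and voom with quality weights 100 and 287. Meis1 was 5.27-fold lower in HS3A8-high than in the control (log2 fold change -2.40 ± 0.266, SE), just short of the threshold (adjusted p = 0.0755, edgeR), and passed in 5 of 14 alternatives. Its adjusted p over these ran from 6.36e-13 to 0.616. The log2 fold change of Fli1 in HS3A8-high over the control was -1.20 (95% confidence interval -1.95 to -0.44) and that of Mef2c -0.89 (-1.57 to -0.22), neither passing. For these 3 members every HS3A8-high library was below every control library, as for 7.47% of all genes.

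In HS3A8-low over the control, all 9 log2 fold changes were above 0 and their median was 0.86, against 0.00 over all genes tested. Gabpa, at 0.0016, was in effect unchanged, and the 95% confidence intervals of Gabpa, Erg, Etv6 and Runx1 included 0. Ets1 had the largest, 1.56 (95% confidence interval 0.65 to 2.47), and 2 of 14 alternatives, DESeq2 and voom, called it. Erg was at 1.08 (-0.54 to 2.70) and Fli1 at 0.95 (0.16 to 1.74). Every HS3A8-low library was above every control library for Fli1, Ets1, Runx1 and Cbfb, as for 7.87% of all genes, though the margin for Cbfb was only 63.0 against 62.4 CPM. The control mean lay between the means of the fractions for 6 of the 9 members, all but Etv6, Gabpa and Runx1. Control replicate 1 was the lowest control library for 8 of 9 members and for 45% of all genes, and at 12.3 CPM of Runx1 and 33.6 CPM of Etv6 it widened the spread of its group.

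The replicate numbers of the fractions were taken as pairs, and within each number the difference could be read directly. For Meis1 the log2 CPM of HS3A8-high minus HS3A8-low was -3.69, -2.98 and -2.87 in numbers 1, 2 and 3. Fli1 gave -2.80, -2.56 and -0.99, and Mef2c -2.04, -2.06 and -0.95, so that both differed less in the third number. In absolute size the difference was smallest in number 3 for 8 of the 9 members, all but Gabpa, and for 32.8% of all 12130 genes compared. Erg gave -4.78, -2.60 and -2.54, Ets1 -2.84, -3.55 and -0.53, and Cbfb -1.26, -1.14 and -0.78. Etv6 went from -0.87 to -0.03 and Runx1 from -0.90 to -0.26, while Gabpa was at -0.13, -0.11 and 0.46. Klf1 was higher in HS3A8-high in each number, by 0.44, 0.35 and 0.27.

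**Figure D4:**
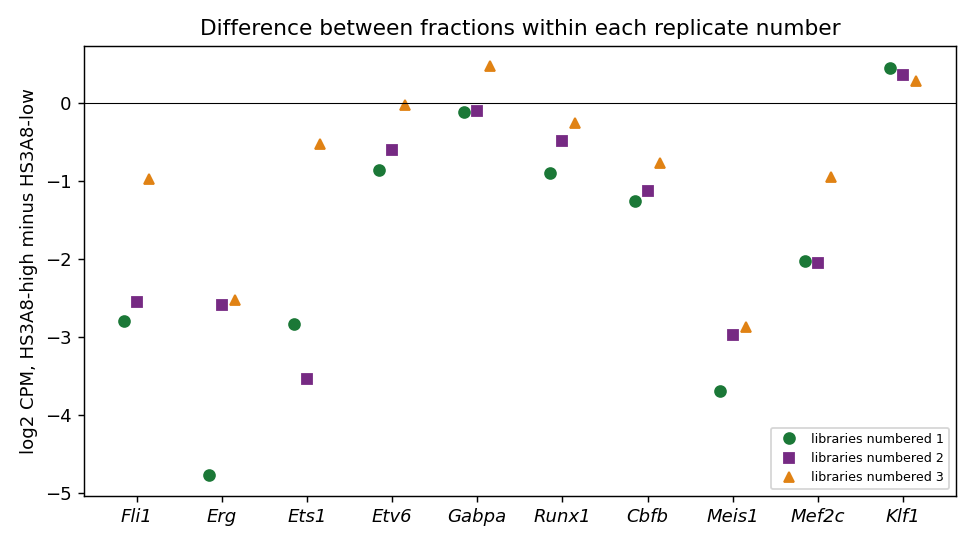
Log2 CPM of HS3A8-high minus HS3A8-low (vertical axis) within each replicate number (3 symbols) for the 9 members and Klf1 (horizontal axis). The triangles of number 3 lie closest to 0 for every member but Gabpa, and all points of Klf1 lie above 0.

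In both HS3A8 fractions, but not in the control, the library numbered 3 carried the most granulocyte-monocyte transcripts. Summed over 12 granulocyte-monocyte markers, HS3A8-high ran from 9.33 to 1606 CPM and HS3A8-low from 134 to 3754 CPM, with replicate 3 highest in each, and the control from 66.2 to 199 CPM with replicate 2 highest. All 11 tested of these markers were lower in HS3A8-high than in HS3A8-low, of which edgeR called 0 and the fit with the block 7. When both libraries numbered 3 were removed, a choice made once these values had been seen, edgeR called 748 of 11898 genes and 6 members. Ets1 was the added one, at -3.19 on the log2 scale (adjusted p = 0.0120, edgeR). Fli1 was then at -2.74 (adjusted p = 0.00914, and 1.45e-06 to 0.144 over its alternatives). All 5 members called with every library kept had larger negative values without these libraries, from -1.21 for Cbfb to -3.95 for Erg. The differences of these members and of Ets1 were smallest in number 3. Larger values without that number therefore follow from the removal and are no separate support.

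Among the 21 other ETS family genes, 11 were tested, 3 had no count in any library, and 1 passed. That was Elk3, an ETS factor that responds to growth signals, at 5.27, 2.41 and 5.16 CPM in HS3A8-high and 22.8, 21.0 and 13.5 CPM in HS3A8-low. All HS3A8-low values were higher, with a log2 fold change of -2.18 ± 0.371 (SE, adjusted p = 0.0319, edgeR). The median over the 11 was -0.31. The block called 4, adding Elf1, Elf4 and Spi1, the last of which encodes the myeloid factor PU.1. Of 17 relatives and partners of the RUNX, GABP, MEIS and MEF2 proteins, 14 were tested and 0 passed in edgeR, with a median log2 fold change of -0.15, and the block called Runx2 alone. Gabpb1, whose product is the partner of GABPA, was at 46.1 to 54.2 CPM in HS3A8-high and 53.4 to 64.3 CPM in HS3A8-low.

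Of 12 GATA1, KLF1 and TAL1 group factors, all tested, 6 were higher and 6 lower in HS3A8-high and 1 passed. It was Nfe2, which drives platelet release, with a log2 fold change of -0.70 ± 0.106 (SE, adjusted p = 0.0257, edgeR), and the block added Gata2 and Klf1. Gata1, which acts in both lineages, was at 472 to 515 CPM in HS3A8-high and 368 to 457 CPM in HS3A8-low. Downstream genes of the megakaryocyte lineage were lower in HS3A8-high in 16 of 17 tested of 24 listed, with a median log2 fold change of -3.06. In that list 6 passed in edgeR, and 12 with the block. Itga2b, the integrin CD41, was at 7.97, 4.29 and 5.09 CPM in HS3A8-high and 125, 82.9 and 67.5 CPM in HS3A8-low, and passed with -4.01 ± 0.338 (SE, adjusted p = 0.00712, edgeR). Pf4, a platelet chemokine, passed at -4.29 on the log2 scale and Treml1, a platelet granule receptor, at -2.97. Tek, the angiopoietin receptor, which is not restricted to the megakaryocyte lineage, passed at -3.06.

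Of 27 KLF1 target genes, 25 were tested, 14 were higher in HS3A8-high and 11 lower, with a median log2 fold change of 0.06. Pklr, the red cell pyruvate kinase, was the 1 that passed, at 150, 153 and 144 CPM in HS3A8-high and 109, 113 and 99.1 CPM in HS3A8-low. All HS3A8-high values were higher, by 0.45 ± 0.0866 on the log2 scale (SE, adjusted p = 0.0402, edgeR), and the block called 6 of the list. The summed level of the KLF1 targets was 5696 to 6296 CPM in HS3A8-high and 5037 to 5117 CPM in HS3A8-low, whereas that of the megakaryocyte genes was 93.5 to 146 and 313 to 593 CPM. These lists were drawn up with earlier results of the data known, and no list was tested as a set.

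Transcripts of other cell types moved with the fractions as well. All 9 tested of 10 stem and multipotent progenitor markers were lower in HS3A8-high, with sums of 12.6 to 30.5 CPM against 126 to 179 CPM in HS3A8-low and 69.1 to 115 CPM in the control, and Mycn and Hlf passed, with 5 called by the block. All 11 T and NK cell markers were lower in HS3A8-high, and Trbc1, Tcf7 and Nkg7 passed, with 6 called by the block. Their sums were 4.59 to 37.8 CPM, against 204 to 255 CPM in HS3A8-low and 57.6 to 133 CPM in the control. Most of the HS3A8-low sum came from Nkg7 and Tcf7 (means of 106 and 59.1 CPM). Cd3e, Cd3d, Cd3g and Cd2 had HS3A8-low means of 1.27, 1.99, 1.25 and 1.58 CPM and no count in HS3A8-high replicates 1 and 2. B cell markers summed to 2.63 to 7.41 CPM in HS3A8-high, 12.1 to 16.6 CPM in HS3A8-low and 5.10 to 11.2 CPM in the control, with 2 of 9 without a count, 3 tested, 0 called by edgeR and 1 by the block. Members such as Ets1, Meis1, Erg, Runx1 and Mef2c are also expressed by stem or lymphoid cells. The part of these cells in the difference of any member, Fli1 included, and in the Fli1 to Klf1 ratio was not tested. Mast cell and basophil markers ran from 1.63 to 80.7 CPM in HS3A8-high, 20.9 to 166 CPM in HS3A8-low and up to 23.1 CPM in the control, with 3 tested, 0 called by edgeR and 1 by the block. For endothelial cells, which also express Erg, Fli1 and Ets1, the sums were 87.9 to 92.3 CPM, 87.8 to 92.3 CPM and 96.5 to 136 CPM, and Cdh5, a defining marker, had no count in any library. Most of these sums came from Egfl7 (means of 47.3 CPM in HS3A8-high and 40.8 CPM in HS3A8-low) and Plvap (42.1 and 37.7 CPM). Tie1 had means of 0.361 CPM in HS3A8-high and 9.63 CPM in HS3A8-low. Tie1 and Emcn of that list passed, both lower in HS3A8-high, but Emcn did not pass with the block (adjusted p = 0.0531), and it had no count in any HS3A8-high library and at most 1.05 CPM in HS3A8-low.

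**Figure D5:**
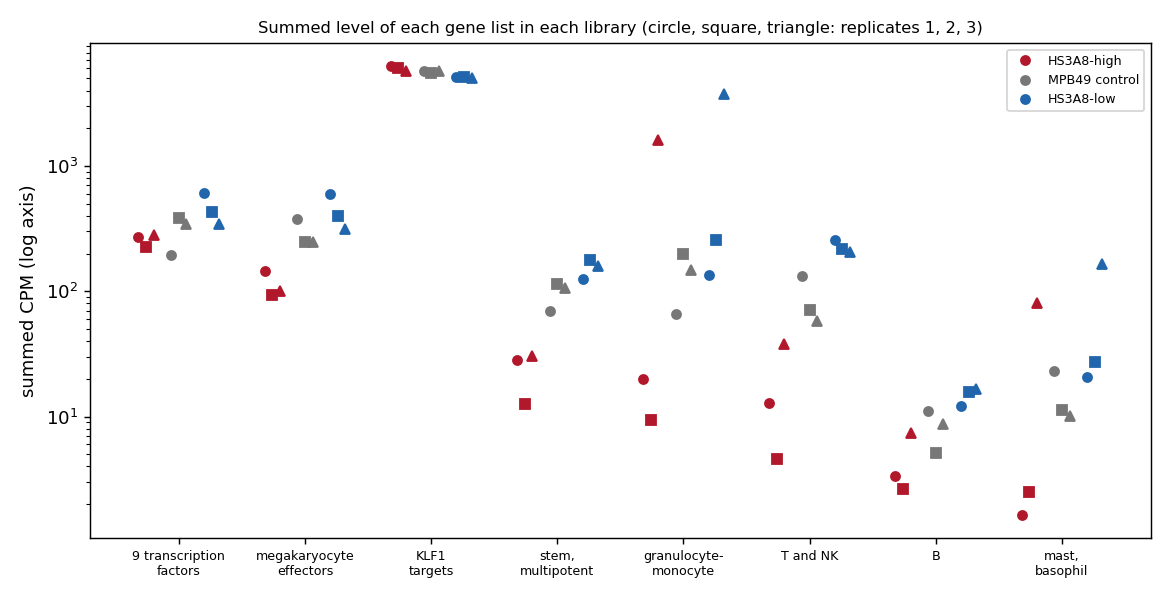
Summed CPM (vertical, log axis) of each gene list (horizontal axis) in each library, coloured by group and shaped by replicate number. The 9 transcription factors and the megakaryocyte effectors are higher in each HS3A8-low library than in any HS3A8-high library, the KLF1 targets lower, and the triangles of replicate 3 of both HS3A8 fractions stand out among granulocyte-monocyte markers.

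Over the 9 libraries the members were compared in log2 CPM with Fli1. These correlations describe libraries that share the sort, so that any gene differing between fractions scores high, and no p is attached. Among 9345 genes of at least 5 CPM, the closest to Fli1 were A430078G23Rik (Pearson's r = 0.973), Trp53i11 (0.973), Zyx (0.972), Mfsd6 (0.969) and Satb1 (0.967). Mef2c came close behind at 0.964, followed among the members by Meis1 at 0.921, Ets1 at 0.901, Erg at 0.879, which is below 5 CPM on average, and Cbfb at 0.834. Etv6 (0.642), Runx1 (0.546) and Gabpa (0.197) followed Fli1 less closely by Pearson's r. By rank (Spearman's rho), Runx1 was at 0.883, the same value as Erg and Cbfb, while Etv6 was at 0.733 and Gabpa at 0.1. HS3A8-low replicate 1 was the highest HS3A8-low library for 9 of 9 members, against 36.5% of all genes, and replicate 3 the lowest for 8 of 9, against 39.4%. In HS3A8-high, replicate 2 was lowest for 7 of 9 members and for 35% of all genes.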

How the data were processed

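RNA-seq was analysed in 9 libraries of sorted mouse MEPs, 3 in each of 3 groups taken from the sample labels. The authors deposited raw, unscaled counts for each gene in 1 table with a column per library, and the submitters' processing notes name STAR 2.5, HTSeq 0.6.1 and mm10, while the annotation release and strand setting are not given in the sources used here. Identifiers were joined to GENCODE M21 on GRCm38, which gave symbols to 34490 of 35275, and 16617 had no count in any library. The members and gene lists were chosen with earlier results of these data known. The study describes its replicates as individual mice, and whether the fractions of a number share a mouse is not stated.

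The 3 comparisons were tested in R 4.3.3 with the quasi-likelihood test of edgeR 4.0.16 (TMM, filterByExpr, Benjamini-Hochberg adjustment over all genes tested, adjusted p under 0.05), with only the libraries of the 2 groups in each fit. The SE of a log2 fold change is its size divided by the root of the F statistic, and intervals use the degrees of freedom of the fit. Levels were TMM-scaled over all 9 libraries, and log2 CPM used a prior count of 2. The log2 ratio of Fli1 to Klf1 added 0.5 to each count and was compared with an exact two-sided permutation test. Named genes were the members, Klf1, at most 4 called genes of each list by smallest adjusted p, and the 5 genes most like Fli1, and some genes called only with the block were named besides, chosen after their values were seen. Alternatives were DESeq2 1.42.0, its size factors, limma 3.58.1 (voom with quality weights), library totals, other count filters, 1 fit of all libraries, the replicate block, a pseudocount of 2 and each library left out. The tests were run on simulated counts first.

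Pairing of the replicate numbers was checked on deviations from the group means over 12130 genes. Same-numbered libraries of the HS3A8 fractions correlated with r of 0.490, 0.325 and 0.508, those of different number from -0.468 to 0.124. These numbers were therefore taken as pairs for the differences within a number and for the replicate block. Deviations from a group mean cancel out for each gene, so negative values between different numbers in part mirror the positive ones. What the libraries of a number share was not tested. The main edgeR fit does not use the pairing. Between the control and either fraction, same-numbered libraries had r from -0.34 to 0.03, so no pairing was seen there. Control replicate 1 stands apart from its group, so this check cannot show that the control came from other mice.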

Additional observations from a re-analysis of the deposited data

How the results depend on the processing

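Between HS3A8-high and HS3A8-low, the 5 called members kept their sign under all 15 alternatives. Genes called numbered 451 in the fit reported, 1305 with DESeq2, 1490 with voom (6 members with each of these tests), 1367 with the replicate block, 748 without the third pair, and 0 to 439 with a library left out, when 0 to 5 members passed. With the block 5 members passed, and Klf1 was called in addition. Cbfb did not pass with all 9 libraries in 1 fit. For HS3A8-high against the control, DESeq2 called 138 genes and 1 member, voom 100 and 3, no count filter 9 and 1, all 9 libraries in 1 fit 32 and 1, the replicate block 0 genes, and leaving out a library 0 to 5 genes and 0 to 1 member. For HS3A8-low against the control, DESeq2 called 94 genes and voom 287, with 1 member each. No pairing of the control numbers with those of the fractions was seen, and whether they share mice is not stated. The block called 0 genes in either comparison.

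Some members that did not pass changed sign. Gabpa between the fractions went to -0.010 with library totals and -0.13 without the third pair, and ranged from -0.066 to 0.18 with a library left out. In HS3A8-high over the control, voom gave -0.29 for Etv6, -0.17 for Gabpa and -0.18 for Runx1, and leaving out a library gave -0.27 to 0.20 for Etv6, -0.17 to 0.23 for Gabpa, -0.20 to 0.37 for Runx1 and -0.53 to 0.014 for Cbfb. In HS3A8-low over the control, Gabpa was at -0.017 with DESeq2 size factors and with the DESeq2 test, at -0.21 with voom and at -0.24 to 0.15 with a library left out. Klf1 was at 0.031 with library totals, which moved the median of all genes to 0.11, and at -0.27 to 0.089 with a library left out. The cause of these changes was not tested. The differences in the Fli1 to Klf1 ratio kept their sign in every alternative, and with the replicate block the smallest possible p is 0.25.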
